A study of Homo sapiens with 8 samples.

Results

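Mediator was followed through the transcripts of 33 genes: 30 MED genes, including the paralogs MED12L and MED13L, together with CCNC, CDK8 and CDK19. The members were picked by gene symbol, and all 33 were found among the 61552 genes counted. The 4 groups were MDA231-LM2 (LM2 below) with a TAF7 hairpin (genotype label TAF7 knockdown), LM2 with a control hairpin (genotype label WT), MDA-MB-231 with the TAF7 hairpin and MDA-MB-231 with the control hairpin. MDA-MB-231 is a triple-negative breast cancer line, LM2 is a subline of it that colonises the lung, and TAF7 encodes a subunit of TFIID. Every group had 2 libraries of mRNA, numbered 2 and 3, all cultures were kept in DMEM with serum, and 1 hairpin against TAF7, number 3 in the titles, was used in both lines. Whether the hairpin cultures were clones or pools, and whether the 2 libraries of a group came from separate cultures, is not stated in the labels. The p-values below therefore measure the spread between libraries, which may be technical. The series set out to identify transcripts that depend on TAF7.

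Mediator is a large assembly that bridges DNA-bound activators and RNA polymerase II at promoters. The head and middle modules contact the polymerase, MED14 is the scaffold that joins the modules, and the tail subunits receive many activators. A separable kinase module (CDK8 or CDK19, cyclin C, MED12 or MED12L, MED13 or MED13L) binds the core reversibly and blocks the polymerase from docking while it is bound. TFIID and Mediator meet in the preinitiation complex, and TAF7 is known to bind TAF1 in TFIID and to restrain its acetyltransferase activity.

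Upstream sequence of 6 members is shown because these genes hold the results below: MED1 was lower after knockdown in both lines, MED4 was among the members higher after knockdown in LM2, and MED20, MED13L, MED12 and MED27 were among the members furthest apart between the lines. Each run gives the 100 bases before the annotated start, 5′ to 3′ in the direction of transcription, from RefSeq on GRCh38.p14. Capitals mark a CCAAT box (CCAAT) or a GC box (GGGCGG), found on either strand.
MED1 (chr17:39451264-39451363, minus strand): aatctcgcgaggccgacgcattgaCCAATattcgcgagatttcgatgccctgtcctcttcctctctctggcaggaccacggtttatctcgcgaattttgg
MED4 (chr13:48095105-48095204, minus strand): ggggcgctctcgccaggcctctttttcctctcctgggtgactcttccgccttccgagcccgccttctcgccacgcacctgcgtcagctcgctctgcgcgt
MED20 (chr6:41920944-41921043, minus strand): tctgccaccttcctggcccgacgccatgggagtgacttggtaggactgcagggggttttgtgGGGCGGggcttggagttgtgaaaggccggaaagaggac
MED13L (chr12:116277694-116277793, minus strand): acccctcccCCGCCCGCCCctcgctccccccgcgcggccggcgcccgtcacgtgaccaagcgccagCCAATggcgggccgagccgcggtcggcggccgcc
MED12 (chrX:71118496-71118595, plus strand): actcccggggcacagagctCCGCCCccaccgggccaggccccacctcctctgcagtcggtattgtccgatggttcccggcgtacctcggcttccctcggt
MED27 (chr9:132079868-132079967, minus strand): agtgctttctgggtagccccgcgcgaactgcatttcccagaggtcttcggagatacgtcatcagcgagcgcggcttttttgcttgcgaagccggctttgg

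In MED13L the capitals near the 5′ end hold a pair of overlapping GC boxes. Windows of 300 bases (250 before to 50 after the start) were matched for 25 of the 33 members, and 6 motifs were searched in them on both strands. The 25 members had 30 windows. The GC box was found in 18 of the 30 (60%), from 16 members, against 45% of all 35116 promoter windows, and the CCAAT box in 11 (36.7%), against 34.6%. A TATA box (TATAAA) was found in MED7 and MED16, or 6.67% of the members' windows, against 11.5% of all windows. The ETS motif CCGGAAG was held by 8 windows (26.7%) of 7 members, against 10.3%, the YY1 motif AAGATGG by 6 (20%), against 5.84%, and the NRF1 motif (GCGC, any base, then TGCGC) by 5 (16.7%), against 5.78%. MED1 was among the 6 with the YY1 motif and MED4 among the 5 with the NRF1 motif. A match to letters is a description of the window and not a bound site.

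Total counts per library lay between 17217776 and 20292291, and the 33 members took 23647 to 27928 of them, or 0.133% to 0.144%. Single members had between 79 counts (MED17) and 2984 counts (MED13L) in a library, and all 33 passed the filter on low counts, which left 15923 genes. CPM below is the read count scaled by library size and TMM factor, in which 1 read was worth 0.0488 to 0.0583. The LM2 control libraries stood apart in composition, with reads in 24490 and 24762 genes, against 22296 to 23434 in the other libraries, so results that use them were also computed without each. TMM factors were 0.960 and 0.935 in LM2 shTAF7 and 1.03 and 1.04 in the LM2 control. FPKM values as deposited follow library totals and take no account of these factors. The 6 mesenchymal breast line markers were all above 1 FPKM, the authors' count per gene length and library total (VIM 186 to 425). Of 9 luminal markers, 4 were above 1 FPKM in every library. These were KRT19 (14.1 to 33.9), ERBB2 (5.18 to 6.77), EPCAM (2.22 to 4.27) and GATA3 (1.26 to 2.65). FOXA1 ranged from 0.4 to 2.14 and ERBB3 from 0.18 to 0.66. ESR1 and CDH1 were at 0.03 or lower, and PGR was at 0. The 5 leukocyte markers were below 1, and of 4 endothelial markers only KDR reached 1.03. The summed FPKM of the mesenchymal markers was 898 to 925 in LM2 shTAF7 against 734 to 739 in the LM2 control, and 750 to 751 in MDA-MB-231 shTAF7 against 768 to 778 in its control. For the luminal markers the sums were 43.9 to 47.1 in LM2 shTAF7 and 26.8 to 27.6 in the LM2 control, and 42.3 to 43.2 in MDA-MB-231 shTAF7 and 32.8 to 34.2 in its control, mostly from KRT19. The part of these shifts in the results below was not tested. In bulk RNA, fewer cells expressing a gene and less of its RNA per cell cannot be told apart.

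The targeted gene was lower in both lines. TAF7 had 142 and 148 CPM in LM2 shTAF7 and 195 and 196 CPM in the LM2 control. In MDA-MB-231 it had 108 and 105 CPM with shTAF7 and 179 and 185 CPM with the control hairpin. The log2 fold change was −0.43 ± 0.07 (SE) in LM2 (edgeR quasi-likelihood test, Benjamini-Hochberg adjusted p = 8.4e-07) and −0.77 ± 0.07 in MDA-MB-231 (adjusted p = 4.0e-12). The effect was smaller in LM2, with a difference between the effects of 0.34 ± 0.10 (adjusted p = 0.00544). That difference was 0.23 with library totals (adjusted p = 0.0538), 0.33 without MDA-MB-231 control replicate 3 (0.0513) and 0.38 with a gene length offset (0.123), and passed in the other 13 alternatives. Whether the Mediator results below depend on the size of the TAF7 decrease was not tested.

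Levels between genes were compared in FPKM, which divides by gene length. Mean FPKM over the 8 libraries was highest for MED10 at 27.9, a middle subunit, for MED30 at 23.4, a metazoan subunit between head and tail, and for MED19 at 16.2, which helps tie the middle module to the polymerase. The lowest means belonged to MED17 at 0.451, the central head subunit, MED12L at 0.615, the paralog of MED12, and MED26 at 1.25, which docks elongation factors onto Mediator. MED10 ranged over libraries between 23.7 and 32.4 FPKM, MED30 between 17.4 and 29.6 and MED19 between 12.5 and 20.03. At the low end, MED26 ranged between 0.88 and 1.54 FPKM, MED12L between 0.44 and 0.88 and MED17 between 0.28 and 0.71, so the ranges of the highest 3 and lowest 3 members did not meet.

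FPKM also rests on the gene length that the deposited tables imply, which for some subunits was above the annotated transcript length. For MED17 that length was 16551 bases, against 5142 bases for its longest coding transcript in GENCODE release 29. It was 32850 against 14615 bases for MED13L and 17343 against 6977 bases for MED12. With the longest coding transcript as the length, MED15, a tail subunit, moved to rank 3 where FPKM gave rank 12, and MED27 to rank 6 where FPKM gave 13. MED10 and MED30 kept ranks 1 and 2, and MED17 and MED12L exchanged places at the bottom with ranks 32 and 33. MED13L moved to rank 19 where FPKM gave 26, but MED12 only to rank 29 where FPKM gave 30.

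**Figure D1:**
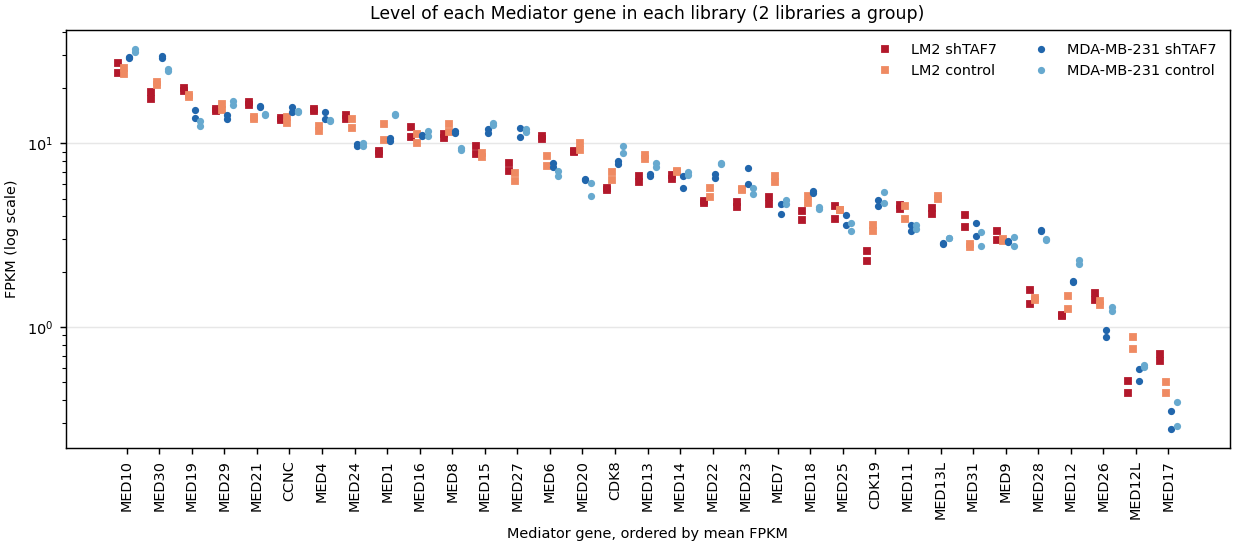
FPKM of each of the 33 Mediator genes in each of the 8 libraries, on a log axis, with genes ordered by mean FPKM and markers coloured by group. MED10 lies highest between 23.7 and 32.4 FPKM, MED17 lowest between 0.28 and 0.71, and the groups separate most for MED28.

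The members varied to different degrees over the study. The ratio of the highest to the lowest library in FPKM ranged from 1.20 for MED9, a middle subunit, to 2.54 for MED28, a subunit near the head and tail, and was above 1.5 for 18 of the 33 members. Summed over all members, FPKM was 269.8 ± 4.67 in LM2 shTAF7 and 271.1 ± 3.04 in the LM2 control, and 283.7 ± 0.566 in MDA-MB-231 shTAF7 and 284.9 ± 1.34 in its control (SD, n = 2 each). These sums overlapped within each line and were lower in all LM2 libraries than in all MDA-MB-231 libraries, but both statements turned with the scaling. Divided by the TMM factors, the sums were 277.6 and 292.2 in LM2 shTAF7, apart from 260.7 and 263.0 in the LM2 control. They were 284.2 and 281.0 in MDA-MB-231 shTAF7 and 279.0 and 282.2 in its control, which overlapped. MED9, MED14, MED11 and MED18 were called in none of the comparisons below, MED11 and MED18 being head subunits. MED14, the backbone, had 67.4 and 66.4 CPM in LM2 shTAF7 and 65.2 and 66.1 CPM in the LM2 control, and 64.5 and 54.8 CPM in MDA-MB-231 shTAF7 and 63.8 and 66.4 CPM in its control.

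Knockdown of TAF7 in LM2 was followed by higher transcript levels of 10 of the 33 members and lower levels of 4, at an adjusted p under 0.05, while 19 did not pass. Together 42.4% of the members were called, against 41.3% of all tested genes, and the share is thus near the background. Among all genes 21.8% were higher and 19.4% lower. The members' log2 fold changes ran from −0.65 to 0.67 with a median of 0.083, against −0.016 over all genes. The SDs between libraries of the members' median log2 CPM, combined over both groups as the root of summed squares, came to 0.142. That spread is of single libraries, where the fold changes use whole groups. No member reached 2-fold and 2 (MED17 and MED12L) reached 1.5-fold. The members higher after knockdown lay in the head (2 of 7), the middle (4 of 9), the head-tail bridge (1 of 4) and the tail (3 of 5), and the lower ones were MED1 of the middle and 3 of 7 in the kinase module.

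These directions depend on how libraries were scaled. With library totals in place of TMM, 5 members were called higher and 8 lower, and the members' median was −0.047. That scaling put the median of all genes at −0.143 and the calls over all genes at 2085 higher and 4664 lower, where TMM gave 3478 and 3092. MED6, MED17, MED4, MED21 and MED31 stayed called as higher under library totals, and MED1, MED12L, MED13 and CDK19 stayed called as lower.

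In the head module, MED6 had 46.6 and 49.2 CPM in LM2 shTAF7, against 34.8 and 30.4 CPM in the LM2 control. The groups did not overlap, and MED6, a conserved head subunit needed for activated transcription in yeast, rose by a log2 fold change of 0.55 ± 0.09 (edgeR adjusted p = 1.1e-06). MED17 had 12.3 and 11.6 CPM in LM2 shTAF7 and 7.98 and 7.08 CPM in the LM2 control, again apart. It rose by 0.67 ± 0.16 (edgeR adjusted p = 4.9e-04), and the call was lost with limma on log2(FPKM + 0.1), with an adjusted p of 0.0975. MED8, MED11, MED18, MED20 and MED22 did not pass, with log2 fold changes no larger than 0.22 in size.

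In the middle module, MED4 had 40.5 and 42.8 CPM in LM2 shTAF7, against 31.0 and 29.2 CPM in the LM2 control, and rose by 0.47 ± 0.09 on the log2 scale (edgeR adjusted p = 2.3e-05). MED21, the partner of MED7 in the hinge of the middle module, had 63.6 and 62.4 CPM in LM2 shTAF7 and 49.2 and 47.1 CPM in the LM2 control, and rose by 0.39 ± 0.08 (edgeR adjusted p = 5.0e-05). All LM2 shTAF7 libraries lay above the LM2 control libraries for both genes, and both calls held under each of 17 alternatives. MED19 rose by 0.26 ± 0.09 (edgeR adjusted p = 0.0184), with 35.7 and 38.2 CPM in LM2 shTAF7 and 30.7 and 31.1 CPM in the LM2 control. Its groups were apart too, but the call ended in 8 alternatives.

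MED31, a small conserved middle subunit, had 7.70 and 9.13 CPM in LM2 shTAF7 and 5.78 and 5.52 CPM in the LM2 control, a log2 fold change of 0.58 ± 0.17 (edgeR adjusted p = 0.00464). Without LM2 shTAF7 replicate 3 its adjusted p was 0.0754. In GENCODE release 29, MED31 shares 70.8% of its exon bases with TXNDC17 on the opposite strand, which had 11656 counts over the 8 libraries, against 1018 for MED31. TXNDC17 itself was higher after knockdown by 0.38 ± 0.08 in LM2 (edgeR adjusted p = 2.5e-04) and by 0.46 ± 0.08 in MDA-MB-231 (adjusted p = 2.1e-05), where MED31 did not pass at 0.20 ± 0.17 (adjusted p = 0.434). Without the strand of counting, which is not given in the sources used here, reads of the pair cannot be told apart.

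MED1, the subunit through which nuclear receptors contact Mediator, was the only member called in both knockdown comparisons and was lower in both. In LM2 shTAF7 it had 81.1 and 80.5 CPM, against 87.4 and 106 CPM in the LM2 control. MDA-MB-231 shTAF7 had 92.2 and 87.1 CPM, against 122 and 121 CPM in its control. The groups did not overlap in either line, and the LM2 control libraries lay further apart than those of any other group.

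MED1 fell by 0.26 ± 0.08 on the log2 scale in LM2 (edgeR adjusted p = 0.00507) and by 0.44 ± 0.07 in MDA-MB-231 (adjusted p = 1.4e-05). Without LM2 control replicate 3 the LM2 change was −0.11 with an adjusted p of 0.35, so the call there rests on that library. With an offset for gene length, MED1 had an adjusted p of 0.241 in LM2 and 0.0548 in MDA-MB-231. The difference between the lines was 0.18 ± 0.11 (adjusted p = 0.216). MED1 spans chr17:39404285-39451286 on the minus strand of GRCh38 (GENCODE release 29).

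**Figure D2:**
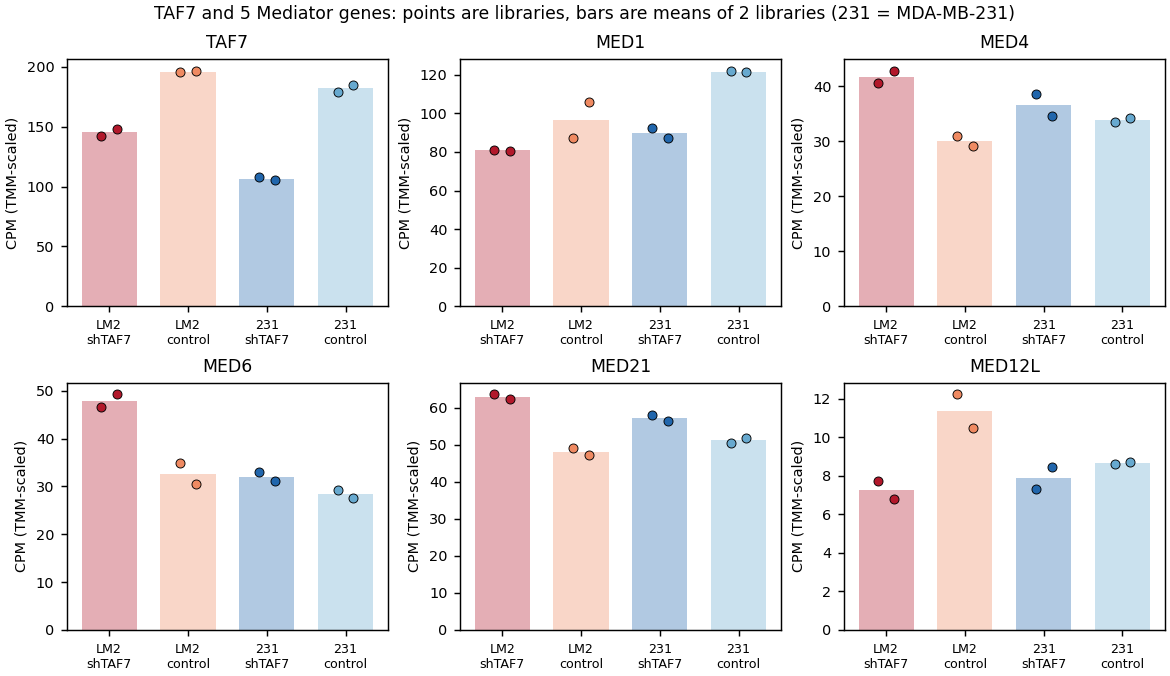
CPM of TAF7 and 5 Mediator genes in each library, with points for libraries and bars for the mean of the 2 libraries in each group. MED1 was lower in shTAF7 libraries of both lines, MED4, MED6 and MED21 were higher in LM2 shTAF7, and MED12L was lower in LM2 shTAF7 at 7.70 and 6.81 CPM against 12.2 and 10.5 CPM in the LM2 control.

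Of the subunits that join head and tail, MED27 had 28.2 and 32.3 CPM in LM2 shTAF7, against 23.2 and 25.4 CPM in the LM2 control, and rose by 0.32 ± 0.09 (edgeR adjusted p = 0.00561). In the tail, MED15, which binds SREBP and other activators, had 94.5 and 107 CPM in LM2 shTAF7 and 85.2 and 88.7 CPM in the LM2 control, a rise of 0.22 ± 0.07 (edgeR adjusted p = 0.014). MED16 had 47.3 and 55.5 CPM in LM2 shTAF7 and 41.3 and 45.9 CPM in the LM2 control, and rose by 0.24 ± 0.08 (adjusted p = 0.0182 by edgeR). MED24, a neighbour of MED1 in nuclear receptor signalling, had 103 and 100 CPM in LM2 shTAF7 and 81.4 and 90.8 CPM in the LM2 control, and rose by 0.24 ± 0.07 (adjusted p = 0.00588 by edgeR). Each of these 4 genes had non-overlapping groups, read from the same libraries as the calls. Each lost its call under library totals, where the adjusted p lay between 0.104 for MED27 and 0.328 for MED15. Leaving out LM2 control replicate 2 also ended all 4 calls, with adjusted p-values between 0.0834 for MED27 and 0.212 for MED16, and leaving out LM2 shTAF7 replicate 3 ended those of MED27 (0.105), MED15 (0.184) and MED16 (0.286).

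All 3 changes called in the kinase module in LM2 were decreases. MED12L, which occupies the place of MED12 in some kinase modules, had 7.70 and 6.81 CPM in LM2 shTAF7, against 12.2 and 10.5 CPM in the LM2 control, and fell by 0.65 ± 0.15 on the log2 scale (edgeR adjusted p = 4.1e-04). Its call held in every one of 17 alternatives. MED12L shares 31.3% of its exon bases with IGSF10 on the opposite strand, which had 124 counts in all, against 1297 for MED12L.

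CDK19, the paralog of the kinase CDK8, had 20.6 and 18.7 CPM in LM2 shTAF7 and 26.7 and 24.6 CPM in the LM2 control, and fell by 0.39 ± 0.10 (edgeR adjusted p = 0.00178). MED13, which links the kinase module to the core, had 87.9 and 83.8 CPM in LM2 shTAF7 and 106 and 100 CPM in the LM2 control, and fell by 0.27 ± 0.07 (adjusted p = 0.00197 by edgeR). Both had separate groups. The CDK19 call ended without LM2 shTAF7 replicate 3 (adjusted p = 0.0579), and with the length offset the adjusted p was 0.0818 for CDK19 and 0.259 for MED13. CDK8, CCNC, MED12 and MED13L did not pass in LM2. Summed FPKM of the kinase module was 34.0 ± 1.08 in LM2 shTAF7 and 39.2 ± 0.665 in the LM2 control (SD, n = 2 each), and in MDA-MB-231 39.6 ± 0.233 in shTAF7 and 42.7 ± 1.08 in the control. The libraries did not overlap in either line. Divided by the TMM factors the sums came closer in LM2, at 35.9 ± 0.458 in shTAF7 and 37.8 ± 0.823 in the control, and were 39.5 ± 0.159 in MDA-MB-231 shTAF7 and 42.1 ± 1.21 in its control, again without overlap.

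**Figure D3:**
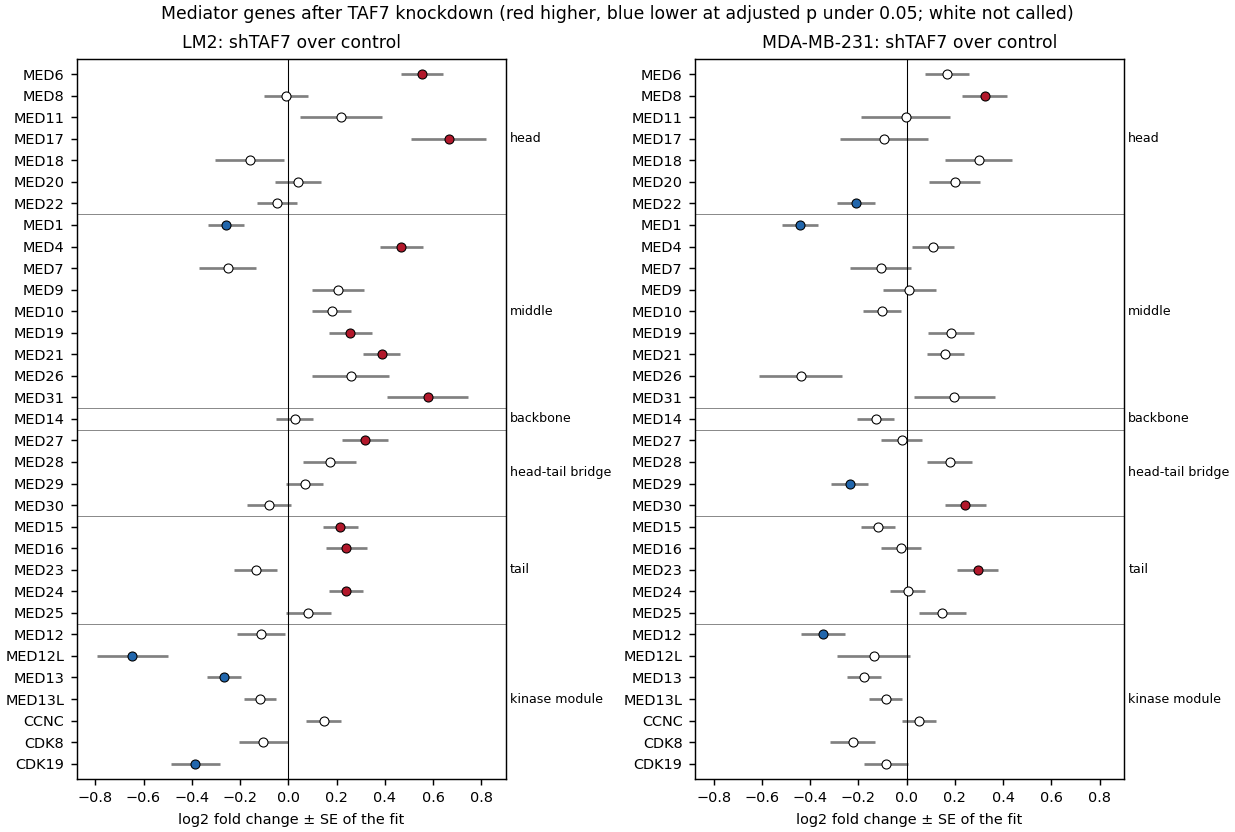
Log2 fold change after TAF7 knockdown, with the standard error of the fit, for the 33 Mediator genes ordered by module in LM2 and in MDA-MB-231. In LM2 10 members are higher and 4 lower, in MDA-MB-231 3 are higher and 4 lower, and MED1 is the only member called in both.

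In MDA-MB-231, 7 members changed. Knockdown raised 3 of the 33 members and lowered 4, and 26 did not pass. Together 21.2% of the members were called, against 25.6% of all tested genes, of which 12.6% were higher and 12.9% lower, so the members were called at no more than the background share. Their median log2 fold change was −0.020, against 0.008 over all genes, and their range was −0.44 to 0.32, with 0 members at 1.5-fold. Beside MED1, the changes fell on MED8 and MED22 in the head, MED29 and MED30 between head and tail, MED23 in the tail and MED12 in the kinase module.

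MED12, the subunit that activates the module's kinase through cyclin C, had 30.8 and 30.2 CPM in MDA-MB-231 shTAF7, against 39.8 and 37.7 CPM in the control. The groups were apart, and MED12 fell by 0.35 ± 0.09 on the log2 scale (edgeR adjusted p = 0.00341). MED29 had 55.2 and 51.2 CPM in MDA-MB-231 shTAF7 and 61.1 and 64.0 CPM in the control, and fell by 0.24 ± 0.08 (edgeR adjusted p = 0.0186). MED22 had 49.2 and 46.1 CPM in MDA-MB-231 shTAF7 and 54.5 and 55.7 CPM in the control, and fell by 0.21 ± 0.08 (edgeR adjusted p = 0.0469).

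Of the members that rose, MED8, a head subunit, had 31.6 and 30.4 CPM in MDA-MB-231 shTAF7 and 25.0 and 24.5 CPM in the control, a log2 fold change of 0.32 ± 0.09 (edgeR adjusted p = 0.0072). MED23, the tail subunit that receives RAS-activated ELK1, had 44.7 and 53.9 CPM in MDA-MB-231 shTAF7 and 41.6 and 38.9 CPM in the control, and rose by 0.29 ± 0.09 (edgeR adjusted p = 0.00803). MED30 had 42.0 and 42.2 CPM in MDA-MB-231 shTAF7 and 35.8 and 35.3 CPM in the control, and rose by 0.24 ± 0.09 (edgeR adjusted p = 0.0297). All 7 called members had groups that did not overlap, but this is read from the same libraries as the calls and is no separate support. Each call was lost in at least 1 of 17 alternatives. Leaving out MDA-MB-231 shTAF7 replicate 3 ended the calls of MED23 (adjusted p = 0.342), MED22 (0.291), MED29 (0.202) and MED30 (0.115). Without MDA-MB-231 control replicate 2 the adjusted p was 0.0771 for MED12 and 0.0643 for MED8. The length offset left MED23 as the sole called member in MDA-MB-231.

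Gene length moved with these changes. Across the 33 members, Spearman's rho between implied length and the log2 fold change was −0.47 in MDA-MB-231 and −0.289 in LM2, against −0.244 and −0.127 across all 15923 genes. These are descriptions across genes, which share the same libraries. With the length offset, 5 members were higher and 1 lower in LM2, and 1 was higher and 0 lower in MDA-MB-231, where the counts over all genes were 689 higher and 418 lower. The part of length in the calls was not otherwise tested.

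The response of the members was compared between the lines as an interaction, the LM2 effect minus the MDA-MB-231 effect, which uses the same 8 libraries as the comparisons above. It was positive for 7 members and negative for 2, so 27.3% of the members were called, against 25.8% of all genes (13.9% positive and 11.9% negative). The members' median difference was 0.162, against −0.003 over all genes. The SDs between libraries of the members' median log2 CPM, combined in the same way over the 4 groups, came to 0.164, again for single libraries. With library totals as the scaling, 1 member was positive and 6 were negative, with a members' median of 0.049 and a median of all genes at −0.115. No one of the 9 calls held in all 16 alternatives. Without MDA-MB-231 shTAF7 replicate 3 the calls of MED6 (adjusted p = 0.0701), MED26 (0.0845), MED30 (0.104), MED23 (0.126), MED29 (0.127) and MED4 (0.13) ended, and without MDA-MB-231 control replicate 2 those of MED15 (0.0563), MED29 (0.0598), MED4 (0.0622), MED27 (0.0649), MED6 (0.0977), MED30 (0.134) and MED17 (0.184).

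MED17 differed most, by 0.76 ± 0.24 (edgeR adjusted p = 0.0144). Its level was 12.3 and 11.6 CPM in LM2 shTAF7 against 7.98 and 7.08 CPM in the LM2 control, and 4.61 and 5.71 CPM in MDA-MB-231 shTAF7 against 6.34 and 4.70 CPM in its control. The groups were apart in LM2 and overlapped in MDA-MB-231, where the change was −0.09 (adjusted p = 0.766). MED26 had 8.54 and 8.03 CPM in LM2 shTAF7 against 6.77 and 7.08 CPM in the LM2 control, and 5.13 and 4.63 CPM in MDA-MB-231 shTAF7 against 6.45 and 6.77 CPM in its control. It passed in neither line, with 0.26 ± 0.16 in LM2 (edgeR adjusted p = 0.197) and −0.44 ± 0.17 in MDA-MB-231 (adjusted p = 0.0544), but the difference of 0.70 ± 0.23 did (adjusted p = 0.0226). For MED26, 45.6% of exon bases are shared with a gene on the same strand that had 1 count. For MED17, 41.9% of exon bases are shared with a same-strand gene that had 0 counts. The effect of shared exons on the counts of MED26 and MED17 was not tested.

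MED6 and MED4 showed positive differences of 0.39 ± 0.13 (edgeR adjusted p = 0.0186) and 0.36 ± 0.12 (adjusted p = 0.0257). In MDA-MB-231, MED6 had 32.95 and 31.1 CPM in shTAF7 and 29.2 and 27.6 CPM in the control, and MED4 had 38.5 and 34.6 CPM in shTAF7 and 33.5 and 34.2 CPM in the control. Neither gene passed in MDA-MB-231, with 0.17 (edgeR adjusted p = 0.18) for MED6 and 0.11 (adjusted p = 0.397) for MED4. MED27 differed by 0.34 ± 0.13 (edgeR adjusted p = 0.0436), MED15 by 0.33 ± 0.10 (adjusted p = 0.0103) and MED29 by 0.30 ± 0.11 (adjusted p = 0.0318). The negative differences were those of MED23, −0.43 ± 0.12 (edgeR adjusted p = 0.00676), and MED30, −0.32 ± 0.13 (adjusted p = 0.0492). MED23 had 37.1 and 36.0 CPM in LM2 shTAF7 and 40.5 and 39.7 CPM in the LM2 control, and MED30 had 26.1 and 29.3 CPM against 30.1 and 28.6 CPM. In LM2 neither gene passed, and in MDA-MB-231 both rose.

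More members differed between the lines, 20, than after knockdown, 14 in LM2 and 7 in MDA-MB-231. The shares of all genes called had the same order, at 64.4%, 41.3% and 25.6%, so this order is not particular to Mediator. The comparison of control hairpins uses the same control libraries as both knockdown comparisons. In the LM2 control 9 members were higher and 11 lower than in the MDA-MB-231 control, and 13 did not pass. That is 60.6% of the members, against 64.4% of all genes (32.2% higher and 32.1% lower), again near the background. The members' median was −0.007, against 0.024 over all genes, and their range was −1.10 to 0.75. One member, MED28, differed at least 2-fold, and 6 differed at least 1.5-fold. Of the 20 calls, 13 held under all 17 alternatives.

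Of the 4 subunits between head and tail, 3 were lower in LM2, where 32.1% of all genes were lower, and the median of the 4 was −0.577. MED28 had 15.03 and 15.16 CPM in the LM2 control, against 32.4 and 32.2 CPM in the MDA-MB-231 control. It was lower by a log2 fold change of −1.10 ± 0.10 (edgeR adjusted p = 4.4e-13). MED27 had 23.2 and 25.4 CPM in the LM2 control and 43.6 and 45.8 CPM in the MDA-MB-231 control, a difference of −0.88 ± 0.09 (edgeR adjusted p = 8.6e-12). MED30 was lower by −0.28 ± 0.09 (edgeR adjusted p = 0.00583), with 30.1 and 28.6 CPM in the LM2 control and 35.8 and 35.3 CPM in the MDA-MB-231 control. All 3 had groups that did not overlap, again read from the libraries that gave the calls, and each call held in all 17 alternatives. MED29, the remaining subunit of this group, did not pass. MED28 shares 32.4% of its exon bases with FAM184B on the opposite strand, which had 45 counts, against 3748 for MED28, and the MED28 pseudogenes had at most 5 counts.

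In the head, 3 of 7 were higher and 1 lower, against 32.2% higher and 32.1% lower among all genes. MED20 had 31.9 and 28.9 CPM in the LM2 control and 16.6 and 19.6 CPM in the MDA-MB-231 control. It was the member most raised in LM2, by 0.75 ± 0.10 (edgeR adjusted p = 8.9e-09), and encodes a head subunit that works beside MED8 and MED18. MED17 was higher by 0.44 ± 0.17 (edgeR adjusted p = 0.0228) and MED8 by 0.35 ± 0.09 (adjusted p = 9.1e-04). The MED17 call ended without LM2 control replicate 2 (adjusted p = 0.161) and without MDA-MB-231 control replicate 3 (0.362). MED22 had 35.9 and 39.7 CPM in the LM2 control and 54.5 and 55.7 CPM in the MDA-MB-231 control, and was lower by −0.54 ± 0.08 (edgeR adjusted p = 1.2e-07).

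The middle module was mixed, with 2 of 9 higher and 2 lower, beside the same 32.2% and 32.1% of all genes. MED19 had 30.7 and 31.1 CPM in the LM2 control and 23.0 and 21.9 CPM in the MDA-MB-231 control, a difference of 0.46 ± 0.09 (edgeR adjusted p = 3.5e-05). MED7, the partner of MED21, was higher by 0.39 ± 0.12 (edgeR adjusted p = 0.00486), with 16.5 and 17.7 CPM in the LM2 control and 13.4 and 12.8 CPM in the MDA-MB-231 control. Its call ended without LM2 control replicate 3 (adjusted p = 0.0643) and without MDA-MB-231 control replicate 3 (0.0617). MED10 was lower by −0.39 ± 0.08 (edgeR adjusted p = 3.8e-05), with 42.9 and 46.2 CPM in the LM2 control and 57.4 and 59.7 CPM in the MDA-MB-231 control. MED1 was lower by −0.33 ± 0.07 (adjusted p = 1.3e-04 by edgeR), from the levels given above.

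Of the tail subunits, MED15 had 85.2 and 88.7 CPM in the LM2 control, against 132 and 129 CPM in the MDA-MB-231 control, and was lower by −0.59 ± 0.07 (edgeR adjusted p = 7.0e-10). MED24 had 81.4 and 90.8 CPM in the LM2 control and 68.7 and 66.5 CPM in the MDA-MB-231 control, and was higher by 0.35 ± 0.07 (edgeR adjusted p = 5.1e-05). MED25, which carries the activator-binding site for ETV-type factors, was higher by 0.28 ± 0.10 (edgeR adjusted p = 0.0106), and MED16 and MED23 did not pass. The MED25 call ended without LM2 control replicate 2 (adjusted p = 0.0525), without LM2 control replicate 3 (0.053) and without MDA-MB-231 control replicate 3 (0.188).

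**Figure D4:**
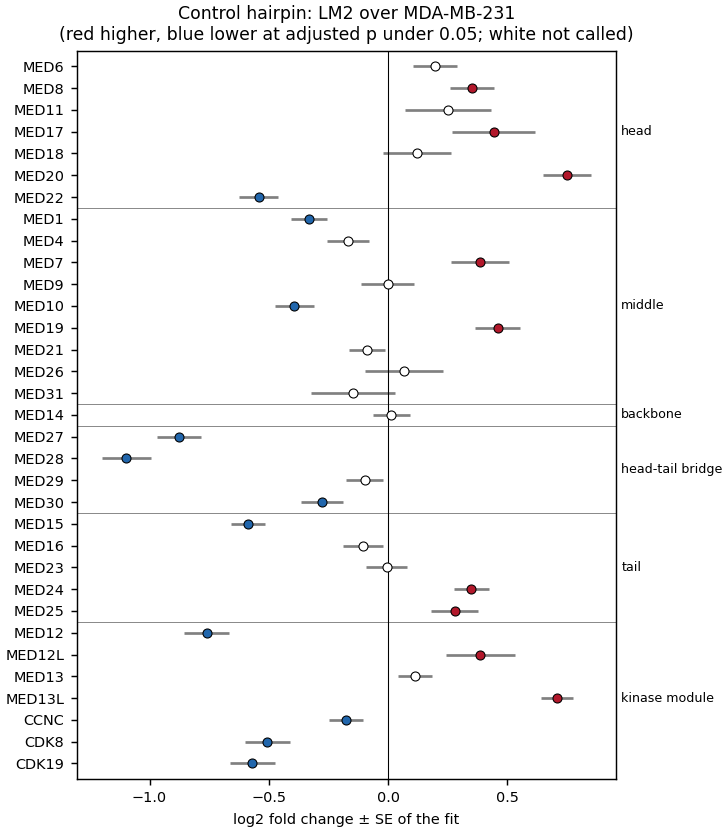
Log2 fold change of the LM2 control over the MDA-MB-231 control, with the standard error of the fit, for the 33 Mediator genes by module. MED28 at −1.10 and MED27 at −0.88 lie furthest to the left, and MED20 at 0.75 and MED13L at 0.71 furthest to the right.

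In the kinase module 6 of 7 members differed between the lines, 2 higher and 4 lower in LM2, where 64.4% of all genes were called. MED13L had 164 and 158 CPM in the LM2 control, against 98.3 and 98.8 CPM in the MDA-MB-231 control, and was higher by 0.71 ± 0.07 (edgeR adjusted p = 9.2e-13). MED12 had 21.1 and 24.6 CPM in the LM2 control and 39.8 and 37.7 CPM in the MDA-MB-231 control, and was lower by −0.76 ± 0.09 (edgeR adjusted p = 1.0e-09). MED12L was higher by 0.39 ± 0.14 (edgeR adjusted p = 0.0174), with 12.2 and 10.5 CPM in the LM2 control and 8.63 and 8.73 CPM in the MDA-MB-231 control. MED12 and MED12L thus moved in opposite directions, though the MED12L call ended without LM2 control replicate 2 (adjusted p = 0.21) and without either MDA-MB-231 control library (0.0949 and 0.0771).

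CDK8 had 21.6 and 23.8 CPM in the LM2 control and 30.8 and 33.6 CPM in the MDA-MB-231 control, a difference of −0.51 ± 0.10 (edgeR adjusted p = 9.9e-06). CDK19 had 26.7 and 24.6 CPM in the LM2 control and 35.5 and 40.8 CPM in the MDA-MB-231 control, a difference of −0.57 ± 0.09 (edgeR adjusted p = 8.2e-07). Both kinases were thus lower in LM2. CCNC, their cyclin, was lower by −0.18 ± 0.07 (edgeR adjusted p = 0.0295), with 75.4 and 70.0 CPM in the LM2 control and 82.5 and 81.8 CPM in the MDA-MB-231 control, and that call ended without LM2 control replicate 3 (adjusted p = 0.162) and without either MDA-MB-231 control library. MED13 did not pass, at 0.11 (adjusted p = 0.16).

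Within each paralog pair of the kinase module, one partner can take the place of the other, so shares of the pair's summed FPKM were set side by side. These shares rest on the implied lengths and are given as values without a test. MED13L made up 40.0% and 40.1% of MED13L plus MED13 in LM2 shTAF7 and 37.4% and 37.7% in the LM2 control. It made up 29.6% and 29.9% in MDA-MB-231 shTAF7 and 29% and 27.9% in its control. The share was higher in every LM2 library than in every MDA-MB-231 library, and higher in shTAF7 than in control in each line. MED12L made up 30.5% and 27.7% of MED12L plus MED12 in LM2 shTAF7 and 41.1% and 34.1% in the LM2 control. The MDA-MB-231 values were 22.4% and 25.1% in shTAF7 and 20.7% and 22.0% in its control. This share was lower after knockdown in LM2 and higher after knockdown in MDA-MB-231. CDK19 made up 31.2% and 29% of CDK19 plus CDK8 in LM2 shTAF7, 36.4% and 32.4% in the LM2 control, 38.0% and 37.1% in MDA-MB-231 shTAF7, and 34.8% and 36.0% in its control. By FPKM, CDK8 was the more abundant partner in every library.

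**Figure D5:**
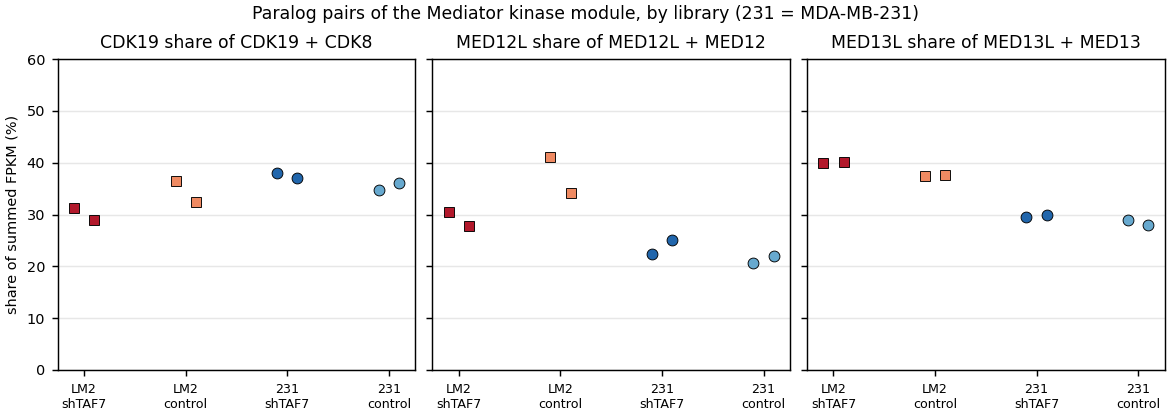
Share of summed FPKM, in percent, taken by CDK19, MED12L and MED13L within their paralog pairs, with a point for each library of the 4 groups. MED13L lies at 37.4% or above in all LM2 libraries and at 29.9% or below in all MDA-MB-231 libraries, and MED12L reaches 41.1% in the LM2 control.

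Over modules, the summed FPKM of the head was 44.7 ± 0.375 in LM2 shTAF7 and 44.7 ± 2.06 in the LM2 control, and 41.2 ± 0.933 in MDA-MB-231 shTAF7 and 37.7 ± 0.424 in its control (SD, n = 2 each). The subunits between head and tail summed to 42.2 ± 2.15 in LM2 shTAF7 and 44.7 ± 0.679 in the LM2 control, and to 58.0 ± 0.679 in MDA-MB-231 shTAF7 and 56.3 ± 0.523 in its control. They took 16.5% ± 0.0636 of the members' FPKM in the LM2 control and 19.8% ± 0.0919 in the MDA-MB-231 control. The middle and tail sums lay within 93.5 to 99.0 and 42.1 to 43.4 as group means. Divided by the TMM factors, the head sum was 47.2 ± 0.497 in LM2 shTAF7 and 43.2 ± 2.19 in the LM2 control, the middle sum was 104.5 ± 4.83 in LM2 shTAF7 and 90.3 ± 2.28 in the LM2 control, and the tail sum was 45.8 ± 2.43 in LM2 shTAF7 and 40.6 ± 1.87 in the LM2 control. For each of these 3 modules the libraries did not overlap. The sums between head and tail overlapped, at 42.35 and 46.75 in LM2 shTAF7 and 42.88 and 43.51 in the LM2 control. Their means of 44.55 and 43.2 lay in the opposite order to those in FPKM as deposited.

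Mediator hands polymerases over to elongation factors and works with coactivators and cohesin, and 22 of 23 such genes listed were tested. In LM2, 5 rose and 10 fell after knockdown, with a median of −0.144, so 68.2% were called, against 41.3% of all genes. In MDA-MB-231 1 rose and 8 fell, with a median of −0.093, so 40.9% were called, against 25.6%. No alternative was followed for this list or for the activators below. The part of scaling and gene length in their counts was not tested. With library totals, calls over all genes in LM2 were 2085 higher and 4664 lower. EP300, a histone acetyltransferase recruited by activators, had 39.8 and 34.5 CPM in LM2 shTAF7 against 53.0 and 56.6 CPM in the LM2 control, and 77.4 and 64.2 CPM in MDA-MB-231 shTAF7 against 119 and 117 CPM in its control. It fell by 0.56 ± 0.09 in LM2 (edgeR adjusted p = 6.6e-07) and by 0.74 ± 0.08 in MDA-MB-231 (adjusted p = 6.5e-10). AFF4, the scaffold of the super elongation complex that MED26 docks, fell by 0.49 ± 0.07 in LM2 (edgeR adjusted p = 1.6e-07) and by 0.51 ± 0.07 in MDA-MB-231 (adjusted p = 3.6e-07). ELL2, of the same complex, had 112 and 106 CPM in LM2 shTAF7 and 186 and 184 CPM in the LM2 control. It fell by 0.76 ± 0.07 in LM2 (edgeR adjusted p = 9.2e-13), with −0.07 (adjusted p = 0.529) in MDA-MB-231 and a difference between the lines of −0.69 ± 0.10 (adjusted p = 2.9e-07). CDK9, the kinase of P-TEFb, rose by 0.42 ± 0.08 in LM2 (edgeR adjusted p = 2.4e-05) and by 0.21 ± 0.07 in MDA-MB-231 (adjusted p = 0.0321). In the LM2 control, against the MDA-MB-231 control, 8 of these genes were higher and 5 lower (59.1% called, against 64.4% of all genes), among the lower EP300 at −1.11 ± 0.08 (adjusted p = 6.0e-17).

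Among 29 tested activators known to contact Mediator, 1 rose and 11 fell in LM2, with a median of −0.147, and 3 rose and 8 fell in MDA-MB-231, with a median of −0.106. That is 41.4% called in LM2, against 41.3% of all genes, and 37.9% in MDA-MB-231, against 25.6%. KLF4 had 25.2 and 25.8 CPM in LM2 shTAF7, against 67.4 and 60.4 CPM in the LM2 control, and fell by 1.33 ± 0.08 (edgeR adjusted p = 1.0e-17). VDR, a nuclear receptor that binds MED1, fell by 1.05 ± 0.11 in LM2 (edgeR adjusted p = 1.1e-10) and by 0.31 ± 0.09 in MDA-MB-231 (adjusted p = 0.00941). CEBPB, a basic leucine zipper factor, fell by 0.65 ± 0.07 in LM2 (edgeR adjusted p = 7.0e-11), to 141 and 155 CPM against 227 and 239 CPM in the LM2 control. In MDA-MB-231 it rose by 0.57 ± 0.07 (adjusted p = 4.5e-08), to 127.5 and 127.2 CPM against 84.7 and 87.4 CPM in the control. Between control hairpins, 10 activators were higher and 12 lower in LM2 (75.9% called, against 64.4% of all genes), with RXRA at −1.33 ± 0.08 (edgeR adjusted p = 2.7e-19) and THRB at 1.67 ± 0.19 (adjusted p = 6.0e-11).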

How the data were processed

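RNA-seq libraries (mRNA enrichment, per the labels' protocols) of the 8 samples were analysed from the read counts per gene and the FPKM values that the authors deposited. STAR 2.7.10a and hg19 are named in the submitters' processing notes. How reads were counted, on which strand and against which gene models is not given in the sources used here. In the deposited tables, FPKM values divide counts by library total and by a fixed gene length, since for 1706 genes above 20 FPKM the implied length varied between libraries by at most 0.0433%.

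Counts of the 15923 genes kept by filterByExpr were scaled by TMM and fitted over all 8 libraries with edgeR's quasi-likelihood model (edgeR 4.0.16, R 4.3.3), 1 mean per group and 4 residual degrees of freedom. A call required a p under 0.05 after Benjamini-Hochberg adjustment over all 15923. Overlap of groups is read from the same libraries as the call, so groups that lie apart are no separate support for it. The share of all genes with groups apart was not computed. SE is that of the fitted log2 fold change. The pipeline was tested on simulated data. Levels between genes use FPKM.

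Genes entered by symbol, but the choice of Mediator, its modules and the partner lists was made with earlier results of these data known. Text values were given for TAF7, members called in both knockdowns or the interaction, up to 8 called members per direction, the 3 highest and lowest by FPKM, kinase paralogs, and up to 4 partners per list. Alternatives were RLE size factors, library totals, DESeq2 1.42.0, no filter, only the 4 libraries compared, replicate number as a block, limma 3.58.1 on log2(FPKM + 1) and log2(FPKM + 0.1), each library left out and, added after seeing the data, a gene length offset (spline, 5 degrees of freedom) and, for sums of FPKM, division by the TMM factors. Replicate pairs differed beyond counting noise, so none was a repeat deposit. With 2 libraries per group, precision is limited by n and not by depth alone. Promoter windows were RefSeq's on GRCh38.p14, and gene positions and exon overlaps came from GENCODE release 29 on GRCh38. No hg19 coordinates were used.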

Additional observations from a re-analysis of the deposited data

Results flagged for a closer look

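The knockdown effect differed between LM2 and MDA-MB-231 for 9 members, by the interaction test at an edgeR adjusted p under 0.05. The LM2 effect minus the MDA-MB-231 effect on the log2 scale was 0.76 for MED17, 0.70 for MED26, 0.39 for MED6, 0.36 for MED4, 0.34 for MED27, 0.33 for MED15 and 0.30 for MED29. It was −0.43 for MED23 and −0.32 for MED30. Every one of these calls was lost in at least 1 of 16 alternatives, the fewest for MED23 (3, all from libraries of MDA-MB-231 left out or the length offset). Groups of 2 libraries are too small for a test of outlying samples.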

How the results depend on the processing

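No called member changed sign in any alternative run. In LM2 (10 higher, 4 lower), library totals gave 5 and 8, limma on log2(FPKM + 1) 5 and 8, limma on log2(FPKM + 0.1) 4 and 8 and the length offset 5 and 1, and leaving out 1 library gave 5 to 12 higher and 3 to 4 lower. In MDA-MB-231 (3 higher, 4 lower), 2 were lower with no filter and with either limma fit, the length offset gave 1 and 0, and leaving out 1 library gave 0 to 3 higher and 1 to 7 lower. Between controls (9 higher, 11 lower), leaving out 1 library gave 5 to 9 and 10 to 11. For the interaction (7 positive, 2 negative), library totals gave 1 and 6, DESeq2 2 and 1, either limma fit 0 and 4, the length offset 0 and 0, and RLE and no filter 1 negative, and leaving out 1 library gave 1 to 9 and 0 to 2. With the replicate number as a block 1 was negative. The numbers did not pair libraries, since differences between replicates 2 and 3 correlated between groups at −0.0618 to 0.0214. At an unadjusted p under 0.05 the length offset (edgeR) left 2 members higher and 1 lower in MDA-MB-231 and 5 positive and 2 negative for the interaction, for which limma had 5 and 4 positive at the pseudocounts 1 and 0.1. Calls over all genes moved as well. For the interaction these were 2221 positive and 1892 negative in the main fit. Library totals gave 1297 and 2674, DESeq2 1899 and 1283, limma on log2(FPKM + 1) 998 and 2096 and the length offset 789 and 1058. In LM2 they were 3478 higher and 3092 lower. There, library totals gave 2085 and 4664, that limma fit 1893 and 4014 and the length offset 2421 and 1841. In MDA-MB-231, 2013 and 2057 became 689 and 418 with the length offset. The cause of these changes was not tested. Over leave-one-out fits the members' median ran from −0.036 to 0.015 in MDA-MB-231, 0.051 to 0.154 in LM2, −0.076 to −0.013 between controls and 0.132 to 0.223 for the interaction. Among single genes, 721 values kept their side of the threshold and 170 lost it. The fit to only the 4 libraries compared has no interaction. MED11, MED26, MED31, MED17 and MED12L had the lowest counts and the largest standard errors.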
